A study of Mus musculus with 4 samples.

Results

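Of 1239 long-term hematopoietic stem cells (LT-HSC) kept from the bone marrow of 2 mice, 197 held at least 1 transcript of Vwf, the gene of von Willebrand factor. These Vwf-positive cells are described here, beside Vwf-negative LT-HSC of the same library and depth. The kept barcodes had 1000 or more genes, 2000 or more unique molecular identifiers (UMIs, which count each captured RNA molecule once) and at most 10% of UMIs from mitochondrial genes. The Vwf-positive cells were chosen by their raw Vwf UMI count alone, 1 or more, and Vwf-negative cells had a count of 0, so the Vwf values below are a description. Of the Vwf-positive cells, 194 came from the LT-HSC library of mouse 2, which had 1217 kept cells, and 3 from that of mouse 1, which had 22. The series as a whole had 5579 kept cells.

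The LT-HSC were sorted as Lin-Kit+Sca1+CD150+CD48- cells, and short-term HSC (ST-HSC) of the same mice as Lin-Kit+Sca1+CD150-CD48- cells. All 4 libraries came from male mice of the strain Tie2-bG-Micm x RosaYFP, aged 14 weeks, so every group carried the Tie2-driven inducible Cre and the YFP reporter. Tie2 (Tek) is active in endothelial cells and in HSC. Single cells were captured in droplets with the 10x Chromium 3' v3 chemistry, which counts the 3' ends of transcripts. The LT-HSC library of mouse 1 differed from the rest, as 22 of its 39553 barcodes passed as cells, against 1217 of 1288 in LT-HSC of mouse 2. The values below are therefore those of LT-HSC of mouse 2 unless another library is named. With 1 such library there is no replicate and no test, and the cells are summed, not treated as replicates. Between 0 and 27 barcodes were shared by any pair of libraries, and 0 of them belonged to Vwf-positive LT-HSC of mouse 1. Of the barcodes that LT-HSC of mouse 2 shared with ST-HSC, 0 belonged to its Vwf-positive cells. The 16 shared by both LT-HSC libraries were not checked for Vwf-positive cells of mouse 2, and 0 of them were kept in both.

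Von Willebrand factor is a secreted glycoprotein that tethers platelets to injured vessel walls. It is made by megakaryocytes, the cells that shed platelets, where it is packed into alpha granules, and by endothelial cells. In mouse marrow some HSC also express Vwf, and in earlier work with Vwf reporter mice such cells tended to give rise to platelets and myeloid cells.

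In LT-HSC of mouse 2, 125 cells held 1 Vwf UMI, 41 held 2, 21 held 3, 5 held 4 and 2 held 5, and 1023 cells held 0. Vwf-positive cells made up 15.9% of the kept cells there (95% Clopper-Pearson interval 13.9 to 18.1%) and 13.6% in LT-HSC of mouse 1 (2.91 to 34.9%). In ST-HSC the share was 3.04% in mouse 1 (80 of 2633 cells, 2.42 to 3.77%) and 2.81% in mouse 2 (48 of 1707 cells, 2.08 to 3.71%). The intervals of LT-HSC of mouse 2 and of both ST-HSC libraries did not overlap, whereas the interval of the 22 cells of LT-HSC of mouse 1 reached down to the ST-HSC shares. These intervals cover counting error only. With every cell thinned to 5000 UMIs, the share was 8.55% in LT-HSC of mouse 2 (98 of 1146 cells), against 1.64% and 1.82% in ST-HSC of mice 1 and 2. In LT-HSC of mouse 1, 1 of 9 cells deep enough for thinning held a Vwf UMI.

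**Figure D1:**
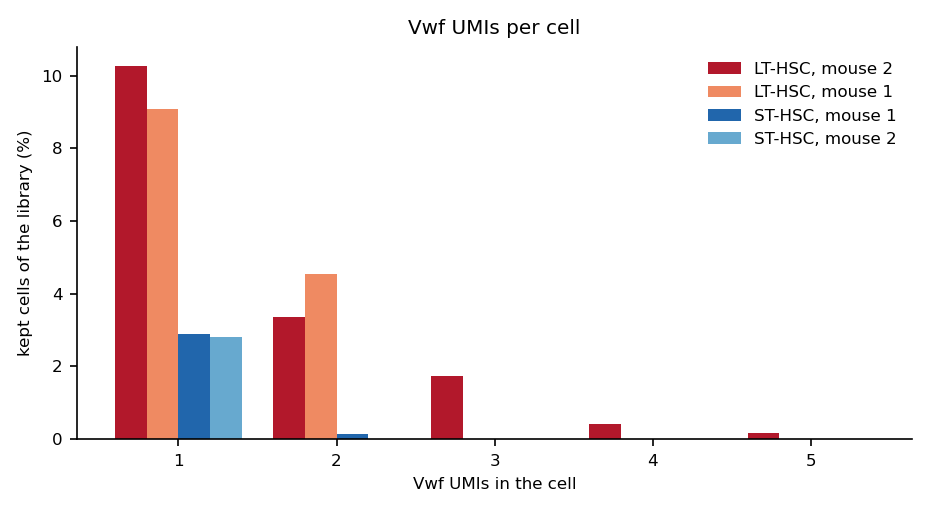
Share of the kept cells of each library (y axis, %) by the number of Vwf UMIs in the cell (x axis, cells with 0 left out). Cells with 3, 4 or 5 Vwf UMIs were found in LT-HSC of mouse 2, and of the 22 kept LT-HSC of mouse 1, 2 held 1 UMI and 1 held 2.

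Vwf was unevenly spread over LT-HSC. Cells with 2 or more Vwf UMIs held 58.3% of all Vwf UMIs in LT-HSC of mouse 2, and the variance of Vwf UMIs per cell was 1.78 times the mean. In ST-HSC of mice 1 and 2 this ratio was 1.06 and 0.972, and 4 cells of mouse 1 and 0 of mouse 2 held 2 UMIs or more. The mean was 0.0319 and 0.0281 Vwf UMIs per cell there, against 0.247 in LT-HSC of mouse 2. At so low a mean the ratio lies near 1 for an even or an uneven level. It therefore cannot tell whether Vwf was more evenly spread in ST-HSC. The Vwf level over all kept cells was 22.6 counts per 1e6 UMIs (CPM) in the LT-HSC of mouse 2 and, from 4 UMIs, 34.7 CPM in those of mouse 1, against 3.01 and 3.54 CPM in ST-HSC. Cells with neutrophil markers, which should lack Vwf, held it in 0 of 2, 0 of 6 and 0 of 9 cells of LT-HSC of mouse 2 and ST-HSC of mice 1 and 2. Those 9 cells allow a share of up to 33.3%, so free Vwf RNA could not be measured there. A Vwf-negative cell may hold Vwf RNA that was not captured.

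Each Vwf-positive cell was paired with the Vwf-negative cell nearest in total UMIs. The 194 Vwf-positive cells had a median of 10900.5 UMIs and 3365 genes, and their 194 Vwf-negative partners 10901 UMIs and 3427 genes. Mitochondrial UMIs made up a median of 3.1% in Vwf-positive and 3.12% in Vwf-negative cells. Vwf itself was left out of these totals. The UMIs of each class were summed, and a gene was counted as past the mark when the ratio of CPM in Vwf-positive over Vwf-negative cells was at least 1.5, or at most 1/1.5. Of 8198 genes with 50 or more UMIs over both sums, 305 lay past the mark toward Vwf-positive cells (3.72%) and 258 toward Vwf-negative cells (3.15%), with a median log2 ratio of -0.019. These counts depend on the cells compared, since 501 genes lay toward Vwf-negative cells when all Vwf-negative cells were used, and 200 toward Vwf-positive cells when cells were thinned to 5000 UMIs. Among the 1147 genes with 500 or more UMIs these shares were 0.697% and 0.349%, so low counts take more genes past the mark. Ratios carry exact conditional Poisson 95% intervals, which cover counting error and not the spread between cells.

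Promoter sequences of Cavin2, Selp, Sult1a1 and Slamf1, whose ratios lay past the mark, are shown as examples. They were not chosen by rank, and windows of genes with higher ratios than Selp and Slamf1, such as Ube2c and Meg3, are not shown. The windows shown therefore do not stand for all windows found. The names looked up were Vwf and the 12 genes with the highest ratios among genes with 100 or more UMIs. Clu, Neo1, Selp, Slamf1 and Procr were added by name. Of 18 names looked up in RefSeq (GRCm38.p6), 13 had windows of 250 bases before to 50 after a transcript start. Vwf, Ramp2, C530008M17Rik, Cracr2b and Clu had none. The capitals mark GGAAGT or its reverse complement ACTTCC, a motif of ETS factors such as Fli1. The Slamf1 window held no match to it. The windows are Cavin2 at chr1:51288876-51289175 (plus strand), Selp at chr1:164115014-164115313 (plus strand), Sult1a1 at chr7:126676369-126676668 (minus strand) and Slamf1 at chr1:171766882-171767181 (plus strand), each written 5' to 3'.
Cavin2: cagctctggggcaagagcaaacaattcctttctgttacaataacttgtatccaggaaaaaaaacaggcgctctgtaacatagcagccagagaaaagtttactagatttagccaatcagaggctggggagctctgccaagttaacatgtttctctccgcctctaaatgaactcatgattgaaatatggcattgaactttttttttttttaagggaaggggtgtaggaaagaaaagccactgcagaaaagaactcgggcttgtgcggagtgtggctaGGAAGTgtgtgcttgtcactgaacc
Selp: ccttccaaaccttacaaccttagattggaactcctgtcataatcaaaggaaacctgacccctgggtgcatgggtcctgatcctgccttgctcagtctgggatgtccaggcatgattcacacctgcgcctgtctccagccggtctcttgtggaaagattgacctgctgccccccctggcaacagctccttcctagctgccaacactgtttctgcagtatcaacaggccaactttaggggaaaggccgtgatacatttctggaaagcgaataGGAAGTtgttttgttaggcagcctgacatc
Sult1a1: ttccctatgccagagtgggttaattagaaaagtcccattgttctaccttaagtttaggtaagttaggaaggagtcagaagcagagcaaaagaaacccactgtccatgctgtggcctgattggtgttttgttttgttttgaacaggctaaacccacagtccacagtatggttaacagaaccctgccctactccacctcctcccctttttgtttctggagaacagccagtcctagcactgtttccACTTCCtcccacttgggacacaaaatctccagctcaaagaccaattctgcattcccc
Slamf1: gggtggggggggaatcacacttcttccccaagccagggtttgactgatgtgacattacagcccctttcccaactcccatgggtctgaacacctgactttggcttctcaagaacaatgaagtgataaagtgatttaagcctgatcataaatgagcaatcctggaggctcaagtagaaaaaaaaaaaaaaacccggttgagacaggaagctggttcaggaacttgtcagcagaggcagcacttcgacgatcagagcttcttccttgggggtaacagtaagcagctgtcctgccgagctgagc
The ETS letters were in 6 of the 16 windows found, against 23.8% of 32851 mouse promoter windows. The GATA letters AGATAA or TTATCT were in 1 of the 16 windows, against 11.2% of all. Both strands were searched, and overlapping matches were allowed. A match is a run of letters and not a shown binding site.

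The platelet genes together differed little in summed level, and a few of them lay past the mark. Of 41 platelet genes with 50 or more UMIs, from 3 lists that hold 70 genes without Vwf, 5 lay past the mark toward Vwf-positive cells and 2 toward Vwf-negative cells, against 3.72% and 3.15% of all genes, and the median log2 ratio was 0.16 against -0.019. The sum over the 70 genes was 4726 CPM in Vwf-positive and 4546 CPM in Vwf-negative cells, a ratio of 1.04 (1.01 to 1.07). A few genes weigh heavily on this sum. Srgn alone held 2515 of its 10510 UMIs in Vwf-positive and 2669 of 10083 in Vwf-negative cells, and Angpt1 held 897 and 991. Per cell, thinned to 5000 UMIs, the median was 23 list UMIs in Vwf-positive and 22 in Vwf-negative cells. The sum was 4563, 4665, 4682 and 5037 CPM in cells with 0, 1, 2 and 3 or more Vwf UMIs, and its 3 lists did not run alike. In that order, platelet receptors lay at 681, 787, 801 and 939 CPM, signalling and cytoskeleton genes at 1898, 1929, 2049 and 2199.7 CPM, and granule genes at 1984, 1949, 1832 and 1898 CPM. In ST-HSC the ratio of the sum was 1.03 in mouse 1 (0.996 to 1.07) and 1.06 in mouse 2 (1.00 to 1.12).

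Among 12 platelet receptors and adhesion molecules, 1 passed the mark toward Vwf-positive and 0 toward Vwf-negative cells, against 3.72% and 3.15% of all genes. It was the junctional adhesion molecule gene Jam3, at 36.4 CPM in Vwf-positive and 21.2 CPM in Vwf-negative cells (log2 ratio 0.78, 0.25 to 1.33). Itga2b, which encodes CD41, the alpha chain of the platelet fibrinogen receptor, lay at 34.6 CPM in Vwf-positive and 27.1 CPM in Vwf-negative cells (0.36, -0.15 to 0.87). Gp9, a subunit of the platelet receptor that binds von Willebrand factor, lay at 42.7 CPM in Vwf-positive and 30.7 CPM in Vwf-negative cells (0.48, 0.01 to 0.95). Cd9, a tetraspanin of platelets, had a log2 ratio of 0.35 (0.16 to 0.54). The list sum was 813 CPM in Vwf-positive and 680.4 CPM in Vwf-negative cells, a ratio of 1.19 (1.12 to 1.28).

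Granule genes split. Clu, which encodes clusterin, a chaperone that platelets secrete, had 72 UMIs in Vwf-positive and 10 in Vwf-negative cells, and was found in 26.8% of Vwf-positive and 3.61% of Vwf-negative cells (log2 ratio 2.84, 1.88 to 3.96). Clu had 0 UMIs in the ST-HSC sums of either class. Selp, the gene of P-selectin, which is stored with von Willebrand factor, lay at 19.3 CPM in Vwf-positive and 9.47 CPM in Vwf-negative cells (1.03, 0.25 to 1.86). Pf4, the gene of the platelet chemokine platelet factor 4, lay the other way, at 65.6 CPM in Vwf-positive and 128 CPM in Vwf-negative cells (-0.96, -1.26 to -0.67). Over all 1023 Vwf-negative cells, not only the partners, Pf4 lay lower, at 97.8 CPM. Cells with 1, 2 and 3 or more Vwf UMIs had 71.1, 26.0 and 96.5 CPM, so the last group was close to all Vwf-negative cells. The Pf4 order was not the same in every library. In ST-HSC of mouse 1 Pf4 lay at 70.4 CPM in Vwf-positive and 116 CPM in Vwf-negative cells, and in ST-HSC of mouse 2 at 223 CPM in Vwf-positive and 76.6 CPM in Vwf-negative cells. Srgn, Angpt1, Tgfb1 and Mmrn1 lay close to 0 on the log2 scale (-0.09, -0.15, -0.09 and 0.23). The granule list sum had a ratio of 0.949 (0.910 to 0.990). Srgn held 2515 of its 4264 UMIs in Vwf-positive and 2669 of 4480 in Vwf-negative cells, and Pf4 held 146 and 284.

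Of 22 genes of platelet signalling and cytoskeleton, 2 (Cavin2 and Vcl) lay past the mark toward Vwf-positive cells and 1 toward Vwf-negative cells. The shares over all genes were 3.72% and 3.15%. Cavin2, which encodes a caveolar coat protein abundant in platelets, lay at 59.4 CPM in Vwf-positive and 19.4 CPM in Vwf-negative cells (1.61, 1.11 to 2.15). It had 0 UMIs in both classes of both ST-HSC libraries. The kinase gene Syk, which signals downstream of platelet collagen receptors, lay toward Vwf-negative cells, at 18.4 CPM in Vwf-positive and 32.0 CPM in Vwf-negative cells (-0.80, -1.39 to -0.22). The sum over the megakaryocyte transcription factor list was 1412 CPM in Vwf-positive and 1198 CPM in Vwf-negative cells, a ratio of 1.18 (1.12 to 1.24). Fli1 (0.19), Tal1 (0.28) and Zfpm1 (0.22), factors of megakaryocyte genes, did not pass the mark.

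Many stem cell genes had higher levels in Vwf-positive cells. Of 29 stem cell genes with 50 or more UMIs, 13 lay past the mark toward Vwf-positive cells and 0 toward Vwf-negative cells, with a median log2 ratio of 0.44, against 3.72% and 3.15% of all genes and a median of -0.019. The sum over the list was 8721 CPM in Vwf-positive and 6735 CPM in Vwf-negative cells, a ratio of 1.29 (1.27 to 1.32). Ifitm1 and Ifitm3 made up a large part of this sum in both classes. Ifitm1 held 4396 of 19395 list UMIs in Vwf-positive and 3279 of 14936 in Vwf-negative cells, and Ifitm3 held 3612 and 3014. Thinned to 5000 UMIs, the median cell held 45 list UMIs among Vwf-positive and 34 among Vwf-negative cells, with interquartile ranges of 34 to 55 in Vwf-positive and 25 to 45 in Vwf-negative cells. Both classes overlapped widely.

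The sulfotransferase gene Sult1a1 lay at 122 CPM in Vwf-positive and 32.9 CPM in Vwf-negative cells (1.89, 1.52 to 2.29), and was found in 52.6% of Vwf-positive and 23.7% of Vwf-negative cells. Meg3, a maternally expressed noncoding RNA, lay at 222 CPM in Vwf-positive and 75.8 CPM in Vwf-negative cells (1.55, 1.30 to 1.81). Over all 1023 Vwf-negative cells, not only the partners, Meg3 lay at 122 CPM. Slamf1, whose protein CD150 set the LT-HSC gate, lay at 39.1 CPM in Vwf-positive and 18.9 CPM in Vwf-negative cells (1.05, 0.50 to 1.61). Apoe, the apolipoprotein E gene, was at 955 CPM in Vwf-positive and 614 CPM in Vwf-negative cells (0.64, 0.54 to 0.74). The Myc family gene Mycn lay at 223 CPM in Vwf-positive and 138 CPM in Vwf-negative cells (0.70, 0.49 to 0.91). The remaining gate genes, Kit (0.13) and Ly6a, which encodes Sca-1 (0.12), lay near 0 on the log2 scale, as did Hlf (-0.09) and Meis1 (0.01), factors of HSC. Cd48 had 2 UMIs in Vwf-positive and 3 in Vwf-negative cells.

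Genes of multipotent progenitors lay the other way. Of 7 with 50 or more UMIs, 0 lay past the mark toward Vwf-positive cells and 4 toward Vwf-negative cells, against 3.72% and 3.15% of all genes, and the list sum was 388 CPM in Vwf-positive and 593 CPM in Vwf-negative cells, a ratio of 0.655 (0.601 to 0.714). Plac8 lay at 56.7 CPM in Vwf-positive and 137 CPM in Vwf-negative cells (-1.27, -1.59 to -0.97). Cd34, which encodes a surface sialomucin that marks progenitors, lay at 75.1 CPM in Vwf-positive and 136 CPM in Vwf-negative cells (-0.86, -1.14 to -0.58). The cytokine receptor gene Flt3 lay at 8.09 CPM in Vwf-positive and 17.1 CPM in Vwf-negative cells (-1.08, -1.98 to -0.24), and Il12a, an interleukin-12 subunit gene, also lay past the mark (-0.59).

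**Figure D2:**
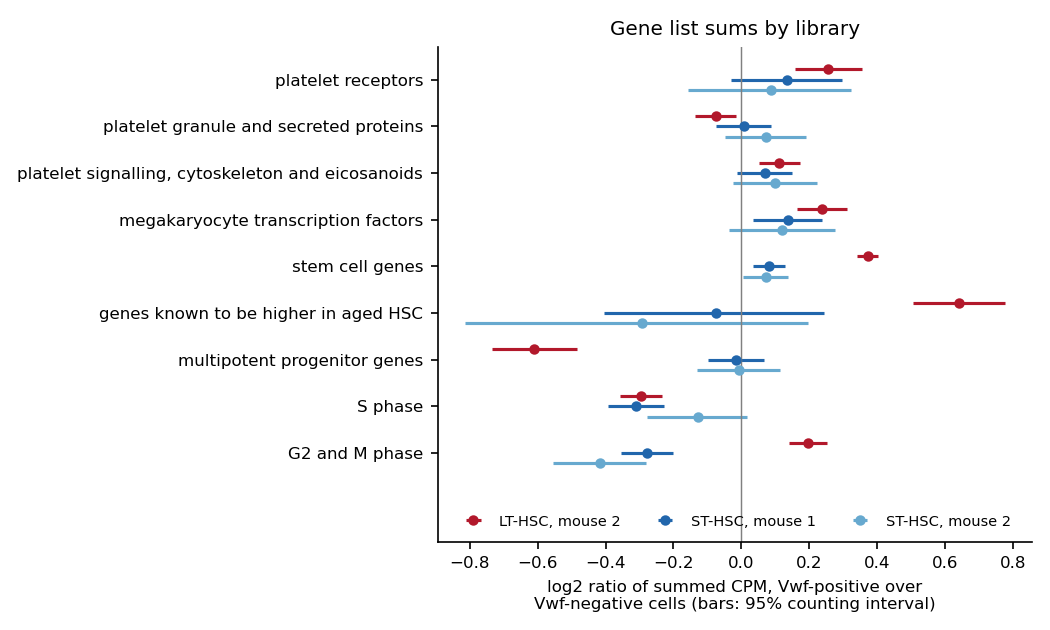
Log2 ratio of the summed CPM of 9 gene lists in Vwf-positive over Vwf-negative cells (x axis), for LT-HSC of mouse 2 and ST-HSC of mice 1 and 2, with 95% counting intervals as bars. In LT-HSC the stem cell list lay at 0.37 and the multipotent progenitor list at -0.61, and in ST-HSC the stem cell list lay at 0.08 and 0.07 and the progenitor list at -0.02 and -0.01.

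A further list held genes known from earlier work to be higher in HSC of aged mice. Of its 14 members with 50 or more UMIs, 7 lay past the mark toward Vwf-positive cells and 1 toward Vwf-negative cells (median 0.55), against 3.72% and 3.15% of all genes. Of these 7, Clu, Selp and Cavin2, are on the platelet lists too. The others were Neo1, the neogenin receptor gene, with 46 UMIs in Vwf-positive and 8 in Vwf-negative cells (2.52, 1.42 to 3.81), Fhl1 (1.00), Nupr1 (0.75) and Gda (0.68). The metallothionein gene Mt1 lay the other way (-0.64). The list sum was 509 CPM in Vwf-positive and 326 CPM in Vwf-negative cells, a ratio of 1.56 (1.42 to 1.71). The other libraries did not share this order, with ratios of 0.611 in LT-HSC of mouse 1 (0.204 to 1.68, 3 cells a class) and of 0.949 (0.755 to 1.18) and 0.816 (0.568 to 1.15) in ST-HSC of mice 1 and 2, and these intervals took in 1. All mice were 14 weeks old, and age was not compared.

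The highest ratios over all genes with 100 or more UMIs were those of Ramp2, which encodes an accessory protein of the receptors for adrenomedullin, at 46.3 CPM in Vwf-positive and 10.4 CPM in Vwf-negative cells (2.16, 1.5 to 2.88), and of Ube2c, described with the cycle genes. They were followed by Sult1a1, Cavin2, Meg3, C530008M17Rik (1.30), Cracr2b (1.29), Ppp1r16b (1.27), Rsad2 (1.21), Kazald1 (1.16), Slfn2 (1.11) and Mki67 (1.07). Some of these ratios depend on the Vwf-negative partners drawn. Over all 1023 Vwf-negative cells Mki67 lay at 34.6 CPM and Meg3 at 122 CPM, both higher than in the partners. Ramp2 and Cavin2 lay at 8.71 and 17.7 CPM there, both lower than in the partners. The ribonuclease gene Rnase6 had the lowest ratio, at 14.8 CPM in Vwf-positive and 41.5 CPM in Vwf-negative cells (-1.48, -2.10 to -0.90). After it came Runx3 (-1.43), a transcription factor of lymphocytes, 4930519L02Rik (-1.42), Plac8, Gm26735 (-1.21), Serpinb1a (-1.17), Arhgap30 (-1.03), Ubr1 (-1.02), Il2rg (-0.98), Pf4, Tank (-0.94) and Ndrg1 (-0.93). For Rsad2, an interferon-induced gene, 1 Vwf-positive cell held 36 of 86 UMIs.

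**Figure D3:**
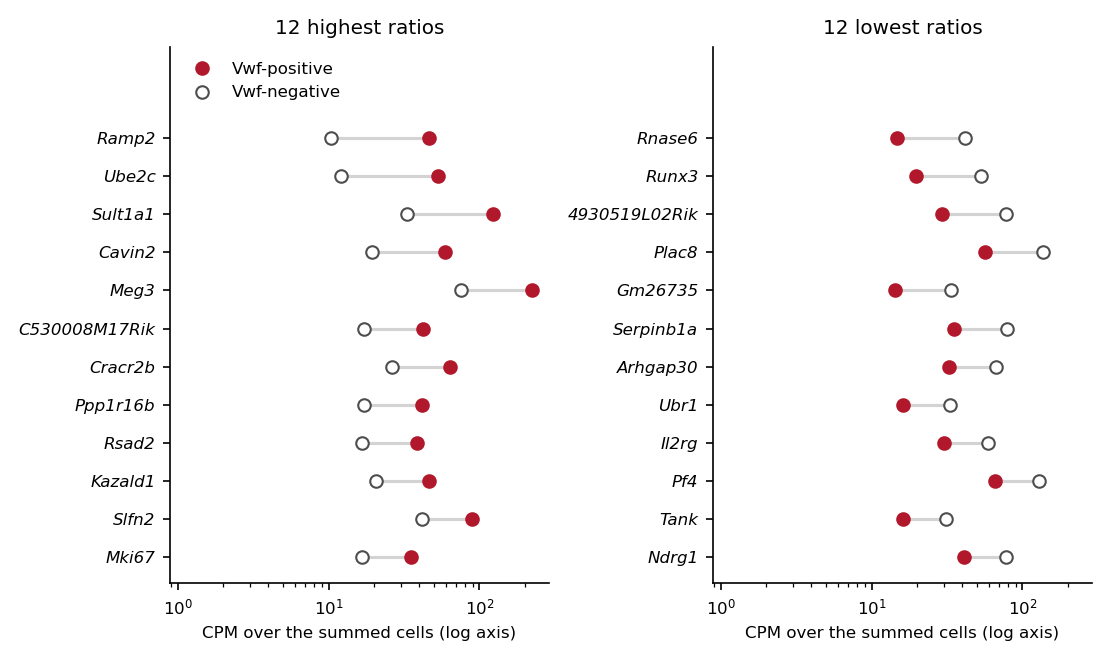
CPM summed over Vwf-positive (filled) and depth-matched Vwf-negative (open) LT-HSC of mouse 2 (x axis, log scale) for the 12 genes with the highest and the 12 with the lowest ratio among genes with 100 or more UMIs. The genes were chosen for these ratios, which run from 2.16 to 1.07 and from -1.48 to -0.93 on the log2 scale.

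S phase genes leaned toward Vwf-negative cells. Of 39 with 50 or more UMIs, 0 lay past the mark toward Vwf-positive cells and 6 toward Vwf-negative cells, against 3.72% and 3.15% of all genes, with a median log2 ratio of -0.29. Mcm3, a subunit of the replicative helicase, lay at 74.6 CPM in Vwf-positive and 122 CPM in Vwf-negative cells (-0.71, -1.0 to -0.43). Rrm2, a subunit of ribonucleotide reductase, had 37 UMIs in Vwf-positive and 62 in Vwf-negative cells (-0.75). The list sum was 1743 CPM in Vwf-positive and 2140 CPM in Vwf-negative cells, a ratio of 0.814 (0.780 to 0.850). In ST-HSC the ratio was 0.807 in mouse 1 (0.761 to 0.854) and 0.914 in mouse 2 (0.824 to 1.01). The S phase log2 ratio turned to 0.31 when cells with markers of other types were left out, which kept 53 Vwf-positive cells, and was 0.28 in the barcodes of LT-HSC of mouse 1 outside the cell filter.

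Genes of the G2 and M phases had a higher sum in Vwf-positive LT-HSC, and a few cells held much of it. The sum was 2457 CPM in Vwf-positive and 2144 CPM in Vwf-negative cells, a ratio of 1.15 (1.10 to 1.19). Toward Vwf-positive cells 9 of 36 genes lay past the mark and toward Vwf-negative cells 0, against 3.72% and 3.15% of all genes. With each cell thinned to 5000 UMIs, so that every cell weighs the same, the log2 ratio of the sum was 0.016, against 0.20 unthinned. One Vwf-positive cell held 829 of the 5464 list UMIs, and 1 Vwf-negative cell 547 of 4756. For Ube2c, a ubiquitin-conjugating enzyme of mitotic exit, 1 cell held 62 of the 119 UMIs of the Vwf-positive sum. Ube2c was found in 3.09% of Vwf-positive and 3.61% of Vwf-negative cells, although it lay at 53.5 CPM in Vwf-positive and 12.2 CPM in Vwf-negative cells. Mki67, the gene of the Ki-67 antigen, was found in 5.67% of both classes, at 35.1 CPM in Vwf-positive and 16.7 CPM in Vwf-negative cells. Over all 1023 Vwf-negative cells, not only the partners, Mki67 lay at 34.6 CPM, close to the Vwf-positive level. The median cell held 12 list UMIs among Vwf-positive and 14 among Vwf-negative cells.

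Counting cells gave the other order. Cells with 40 or more G2 and M phase UMIs per 10000 UMIs made up 4.12% of Vwf-positive (8 of 194) and 5.67% of Vwf-negative cells (11 of 194). For the S phase list 7.73% of Vwf-positive (15 cells) and 10.3% of Vwf-negative cells (20 cells) passed, and the intervals of both classes overlapped for either list. Among cells past this mark for either list, 12.1% held Vwf (17 of 141), against 16.4% of the other kept cells (177 of 1076), although the cycling cells were deeper, with a median of 17399 against 9983.5 UMIs. Their Vwf level was 8.92 CPM, against 25.8 CPM in the other cells. Without these cycling cells, the log2 ratio of the G2 and M phase sum was -0.14, and that of the S phase sum -0.33. Without doublet calls and the deepest cells the G2 and M phase value was -0.095, so its direction turned with few cells. The mark of 40 was chosen after the data had been seen.

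**Figure D4:**
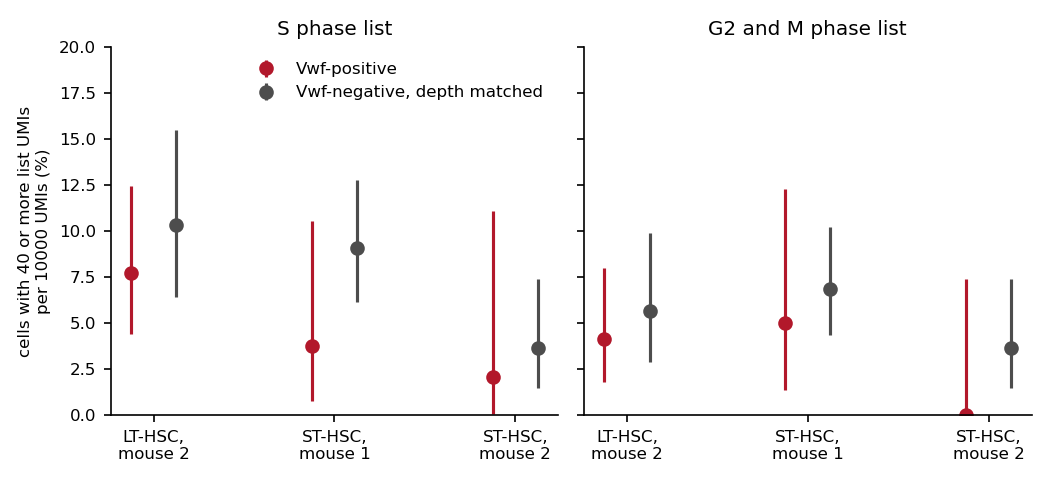
Share of Vwf-positive (red) and depth-matched Vwf-negative (grey) cells with 40 or more list UMIs per 10000 UMIs (y axis, %), for the S phase and the G2 and M phase list in 3 libraries (x axis), with exact 95% binomial intervals. The Vwf-positive share lay below the Vwf-negative share in all 6 pairs, and the intervals of each pair overlapped.

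Genes that hold cells out of the cycle had a higher sum in Vwf-positive cells, at 1307 CPM in Vwf-positive and 1126 CPM in Vwf-negative cells, a ratio of 1.16 (1.10 to 1.22). Txnip alone held 1639 of the 2906 list UMIs in Vwf-positive and 1392 of 2497 in Vwf-negative cells, so the sum is largely that of 1 gene. Thinned to 5000 UMIs, the median cell held 7 list UMIs among Vwf-positive and 5 among Vwf-negative cells. Of 11 with 50 or more UMIs, 2 lay past the mark toward Vwf-positive cells and 0 toward Vwf-negative cells, against 3.72% and 3.15% of all genes. A ratio above 1 was found for 6 of the 11. Cdkn1c, an inhibitor of cyclin-dependent kinases, lay at 108 CPM in Vwf-positive and 56.8 CPM in Vwf-negative cells (0.93, 0.61 to 1.25), and the growth suppressor gene Ndn at 70.6 CPM in Vwf-positive and 36.1 CPM in Vwf-negative cells (0.97, 0.57 to 1.38). Cdkn1b (-0.17), Btg1 (-0.06) and the forkhead factor gene Foxo3 (-0.56) lay below 0 on the log2 scale. In ST-HSC the ratio of this sum was 1.18 in mouse 1 (1.10 to 1.27) and 0.995 in mouse 2 (0.887 to 1.11). Of 12 G1 genes, 3 lay past the mark toward Vwf-positive cells and 2 toward Vwf-negative cells, again against 3.72% and 3.15%, and their sum had a ratio of 0.971 (0.921 to 1.02). Among them the kinase gene Cdk6, which drives entry into the cycle, lay at 109 CPM in Vwf-positive and 203 CPM in Vwf-negative cells (-0.90, -1.13 to -0.67). Myc lay at 69.7 CPM in Vwf-positive and 129 CPM in Vwf-negative cells (-0.88, -1.17 to -0.60), opposite to Mycn.

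The levels of several lists differed with the number of Vwf UMIs in a cell. The groups with 0, 1, 2 and 3 or more Vwf UMIs held 1023, 125, 41 and 28 cells, at median depths of 10207, 10895, 10870 and 11204.5 UMIs. Cells with 1 Vwf UMI and cells with 0 lie on either side of the limit that defines the Vwf-positive cells. The genes known from aged HSC lay at 285, 424, 564 and 787 CPM in that order, and the stem cell genes at 7101, 8207, 9735 and 9489 CPM. Multipotent progenitor genes lay at 578, 449.5, 252 and 319 CPM, and S phase genes at 2139, 2008, 1289 and 1255 CPM. G2 and M phase genes had no such order, at 2290, 2581, 3021 and 1182 CPM. Cells with 2 Vwf UMIs held 1392 of these list UMIs, and all 62 Ube2c UMIs of that group lay in 1 cell. How much of the list sum that cell held was not checked, so the peak at 2 Vwf UMIs may rest on few cells. Of single genes, Cavin2 lay at 17.7, 42.2, 80.3 and 102 CPM, Selp at 6.35, 13.4, 15.2 and 49.7 CPM, and Myc at 123, 80.9, 58.6 and 38.0 CPM. Sult1a1 was highest with 2 Vwf UMIs, at 38.8, 88.6, 249.6 and 90.7 CPM.

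**Figure D5:**
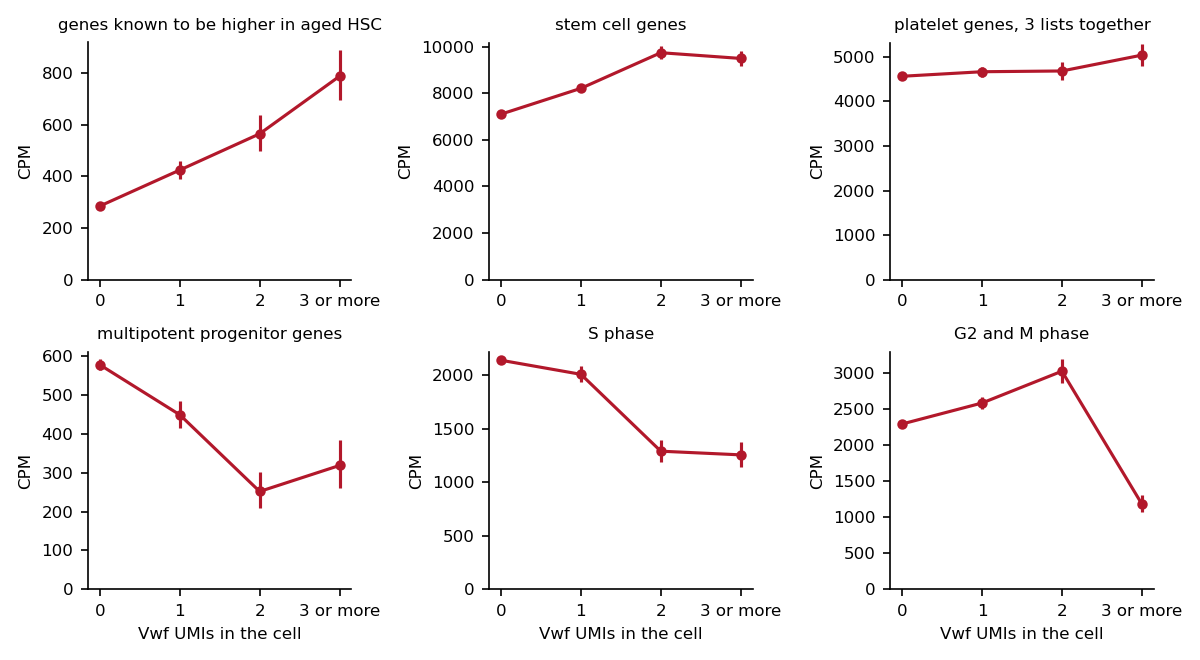
Summed CPM of 6 gene lists (y axes, from 0) in LT-HSC of mouse 2 with 0, 1, 2 and 3 or more Vwf UMIs (x axes), with exact 95% Poisson intervals. The list of genes known from aged HSC runs from 285 to 787 CPM, and the platelet lists stay between 4563 and 5037 CPM.

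ST-HSC allowed a test, since both libraries held Vwf-positive cells that did not enter the choice of members. In an edgeR quasi-likelihood fit of 9101 genes with the mouse as a block, 0 genes were higher (0.0%) and 9 lower (0.0989%) in Vwf-positive ST-HSC, and 611 genes had an unadjusted p under 0.05. The 9 were Actb, Ppia, Ncl, Tuba1b, H2afz, Hmgb2, Srsf3, Birc5 and Ran, of which Tuba1b, H2afz, Hmgb2 and Birc5 are known to be high in dividing cells. Birc5, the gene of the mitotic protein survivin, had 5 UMIs in Vwf-positive and 95 in Vwf-negative cells of mouse 1, and 0 in Vwf-positive and 18 in Vwf-negative cells of mouse 2. Its log2 fold change was -2.49 (SE 0.52, edgeR adjusted p = 0.0180). In LT-HSC the Birc5 log2 ratio was 0.83 (0.38 to 1.29). Hmgb2, a chromatin protein of dividing cells, had a log2 fold change of -0.40 (SE 0.08, edgeR adjusted p = 0.0113). DESeq2 called 0 genes on the same sums, with 12 at an unadjusted p under 0.05, and edgeR called 0 with 1 Vwf-negative cell per Vwf-positive cell. The calls rest on 2 animals and 1 residual degree of freedom.

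In the same fit, 0 of 36 platelet genes and 0 of 24 stem cell genes passed in either direction, with median log2 fold changes of 0.09 and 0.09 beside -0.0014 over all genes. Of 37 S phase genes 0 passed (median -0.31), and of 34 G2 and M phase genes 2 were lower, Hmgb2 and Birc5 (median -0.22). The multipotent progenitor list, with a ratio of 0.655 in LT-HSC, had ratios of 0.990 (0.935 to 1.05) and 0.996 (0.914 to 1.08) in ST-HSC of mice 1 and 2. The difference between the gates was not tested. Vwf-positive ST-HSC had a stem cell list sum of 5391 and 6212 CPM in mice 1 and 2.

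LT-HSC of mouse 1 held too few cells for more than a description. Its 3 Vwf-positive cells and 3 partners held 115 and 104 UMIs over the platelet lists, 156 and 182 over the stem cell list and 3 and 9 over the progenitor list. The intervals of the stem cell ratio (0.897, 0.720 to 1.12) and of the progenitor ratio (0.349, 0.0608 to 1.40) both took in 1. Those of the granule list (1.66, 1.07 to 2.59), of mature megakaryocyte and platelet markers (2.91, 1.31 to 7.08, from 25 UMIs in Vwf-positive and 9 in Vwf-negative cells) and of interferon response genes (0.443, 0.256 to 0.742) did not. Outside the cell filter, 124 barcodes of that library with 300 or more UMIs held Vwf, at a median of 524 UMIs. Set beside 1240 barcodes without Vwf, their stem cell ratio was 1.02 (0.923 to 1.12), their progenitor ratio 1.03 (0.695 to 1.47) and their ratio for genes known from aged HSC 0.931 (0.549 to 1.49). Other lists were higher in these Vwf-positive barcodes, with ratios of 1.12 (1.00 to 1.24) for the platelet lists, 1.47 (1.16 to 1.84) for mature megakaryocyte and platelet markers, 1.39 (1.19 to 1.61) for erythroid genes and 1.21 (1.03 to 1.42) for S phase genes. Of the single genes above, Pf4, Cdkn1c, Slfn2, Runx3, Il12a, Ubr1, 4930519L02Rik and Gm26735 changed direction there.

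Endothelial cells also make Vwf, and their markers were checked. Cdh5 and Flt1, which define endothelium, had 0 UMIs in both classes, and Plvap had 2 in Vwf-positive and 1 in Vwf-negative cells. Other endothelial genes were found, with Kdr at 13 UMIs in Vwf-positive and 6 in Vwf-negative cells and Ptprb at 4 and 0. Tek lay the other way, at 25 UMIs in Vwf-positive and 32 in Vwf-negative cells. The summed level of the 15 listed markers was 384 CPM in Vwf-positive and 283 CPM in Vwf-negative cells, a ratio of 1.36 (1.22 to 1.51). Of 6 markers with 50 or more UMIs, 2 lay past the mark toward Vwf-positive cells, against 3.72% of all genes, Ecscr with 106 UMIs in Vwf-positive and 53 in Vwf-negative cells and Pecam1 with 83 in Vwf-positive and 55 in Vwf-negative cells. Egfl7, Eng, Emcn and Tek are also expressed by HSC. Cldn5 had 27 UMIs in 12 Vwf-positive and 6 in 4 Vwf-negative cells. Cells with 5 or more UMIs over 3 or more of the listed genes made up 38.1% of Vwf-positive cells (74 of 194) and 20.1% of all Vwf-negative cells (206 of 1023). Erythroid genes, counted the same way, marked 38.1% of Vwf-positive (74 of 194) and 29.3% of Vwf-negative cells (300 of 1023), and mature megakaryocyte and platelet markers 37.1% of Vwf-positive (72 of 194) and 35.0% of Vwf-negative cells (358 of 1023). The erythroid sum had a ratio of 1.11 in LT-HSC of mouse 2 (1.05 to 1.17) and of 1.13 (1.06 to 1.22) and 1.18 (1.06 to 1.31) in ST-HSC of mice 1 and 2. The megakaryocyte marker sum had a ratio of 1.02 in LT-HSC of mouse 2 (0.941 to 1.10) and of 0.947 (0.831 to 1.08) and 1.39 (1.17 to 1.65) in ST-HSC of mice 1 and 2. Car2 alone held 1955 of the 2659 erythroid UMIs in Vwf-positive and 1895 of 2395 in Vwf-negative LT-HSC of mouse 2. Nrgn held 796 of 1347 megakaryocyte marker UMIs in Vwf-positive and 700 of 1322 in Vwf-negative cells. A cell marked by these lists is therefore not shown to be of that type. The part of the endothelial, erythroid and megakaryocyte markers in the other differences was not tested. Neutrophil, macrophage, mast cell, B cell and T cell markers marked 0 Vwf-positive cells as another type. Macrophage markers summed to 15 UMIs in Vwf-positive and 40 in Vwf-negative cells, a ratio of 0.374 (0.192 to 0.692), and mast cell markers to 5 in Vwf-positive and 16 in Vwf-negative cells (0.312, 0.0893 to 0.890).

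Vwf lies on chromosome 6 from 125546774 to 125686679 on the plus strand of mm10. Of the genes within 300 kb, Cd9, Tnfrsf1a and Ltbr had 50 or more UMIs, with log2 ratios of 0.35, -0.15 and -0.38, and none passed the mark. Plekhg6 had 9 UMIs in Vwf-positive and 2 in Vwf-negative cells, Gm28809 had 6 in Vwf-positive and 13 in Vwf-negative cells, and Scnn1a 1 in each. Gm28809 is antisense to Cd9, and the sources used here do not state the strand setting of the counting, so their reads may not be told apart. Ano2, the nearest gene downstream, and Tuba3a had 0 UMIs in the kept cells.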

How the data were processed

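For each of 4 libraries, 2 per gate, the authors deposited a matrix of UMI counts, without normalization. Per the submitters' processing notes it came from Cell Ranger 3.1.0 on mm10, and the file headers give software version 3.0.2. The rule by which the authors kept barcodes is not stated in the sources used here. Gene positions came from GENCODE vM21, where 99.6% of 31053 identifiers were found. Counts of 3' tags of near-identical genes can be shared.

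Cells were filtered as stated above, and doublets were left in: Scrublet in scanpy 1.11.5 called 20 of 1217 cells of LT-HSC of mouse 2, and leaving out calls and the deepest 5% of cells was an alternative. Total UMIs of kept cells were 115305, 13249904, 27870823 and 13566531 in LT-HSC of mice 1 and 2 and ST-HSC of mice 1 and 2. At 3 counts these give floors of 26.0, 0.226, 0.108 and 0.221 CPM. For LT-HSC each Vwf-positive cell had 1 Vwf-negative partner of the same library, taken without replacement, and for ST-HSC 4. The test of the ST-HSC sums was edgeR's quasi-likelihood test (version 4.0.16, TMM scaling, filterByExpr at its defaults, the mouse as a block, Vwf left out, Benjamini-Hochberg adjustment over all genes, threshold 0.05), with DESeq2 1.42.0 as an alternative. The mouse number pairs the 2 classes, since both come from the same library. Scripts were tested on simulated data.

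The cells and gene lists were chosen with earlier results of these data known. Named genes were Vwf, the gate genes, the 4 members with the most UMIs and up to 4 with the largest ratio in each list, the 12 highest and 12 lowest ratios over all genes, the called ST-HSC genes and the genes within 300 kb of Vwf. Hlf, Meis1, Fhl1, Gda, Mt1 and the endothelial genes were named after their values were seen. Alternatives covered depth matching, thinning, filters, cell classes, scaling and tests. Some genes that the rule names are not reported here.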

Additional observations from a re-analysis of the deposited data

Results flagged for a closer look

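Vwf was also found in LT-HSC barcodes of mouse 1 outside the cell filter, which enter none of the main comparisons. They held 212 Vwf UMIs in 211 of 39531 barcodes, 15.8 CPM, above the 3.01 and 3.54 CPM of ST-HSC of mice 1 and 2. Their median depth was 285 UMIs.

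The log2 ratio of the G2 and M phase sum in Vwf-positive over Vwf-negative cells was 0.20 in LT-HSC of mouse 2. It was negative in both ST-HSC libraries, at -0.28 and -0.42 in mice 1 and 2. In LT-HSC of mouse 1 it was 0.63, from 34 UMIs in Vwf-positive and 23 in Vwf-negative cells (3 cells a class). The interval of that value, -0.18 to 1.46, took in both 0 and the value of mouse 2. It therefore cannot tell whether the value of mouse 2 repeats. The difference between the gates was not tested. In LT-HSC of mouse 2 the value was 0.016 with cells thinned to 5000 UMIs and -0.14 without the cycling cells, and 1 Vwf-positive cell held 829 of 5464 list UMIs.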

How the results depend on the processing

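Log2 ratios in LT-HSC of mouse 2 are Vwf-positive over Vwf-negative, and alternatives that did not move a value by more than its interval are not listed. Of named genes and further lists, only those past the mark that changed sign are listed. The stem cell sum (0.37) was 0.30 against all Vwf-negative cells, 0.33 with 2 partners, 0.55 for cells with 2 or more Vwf UMIs, 0.21 with cells of other types left out, 0.23 with cycling cells left out and 0.025 in barcodes of LT-HSC of mouse 1 outside the cell filter. In the same order for the last 4 settings, the progenitor sum (-0.61) was -0.97, -0.45, -1.87 and 0.039, and the S phase sum (-0.30) was -0.67, 0.31, 0.66 and 0.28, with -0.14 without doublets. The G2 and M phase sum (0.20) was 0.10 against all Vwf-negative cells, 0.016 thinned, 0.32 with 2 or more Vwf UMIs, -0.095 without doublets, -0.80 with other types left out, 0.12 with cycling cells left out, -0.14 with the higher cycling mark, -0.087 in the barcodes outside the filter and 0.14 without the richest cell of each class. The platelet sum (0.056) was 0.0094 without doublets, 0.32 with cycling cells left out and 0.16 in those barcodes. Leaving out cells of other types by all lists removed 758 of 1217 cells, since HSC express several of those markers, and left 53 Vwf-positive cells; with 5 lists, chosen after the data had been seen, 9 cells were removed and 0 of 97 named results moved. Leaving out cycling cells at 5 G2 and M phase UMIs per 10000 removed 1173 cells and left 8 Vwf-positive cells, so its values say little; the higher mark and the removal of the richest cells were also chosen after the data had been seen. Named genes had a value in an alternative with 20 or more UMIs and none at 0. Besides the changes of sign below, 31 named genes moved outside their interval with 2 or more Vwf UMIs and 28 with other types left out. The number was 20 with cycling cells left out, 6 at the higher cycling mark, 6 without doublets and 11 thinned. It was 8 against all Vwf-negative cells, 2 with 2 partners and 41 in the barcodes outside the filter. In the barcodes outside the filter the list of genes known from aged HSC (-0.10), 4930519L02Rik (1.74), Cdkn1c (-0.22), Gm26735 (0.15), Il12a (1.21), Pf4 (1.22), Runx3 (0.15), Slfn2 (-0.26) and Ubr1 (1.47) changed sign, and with other types left out Ctnnal1 (-0.14), Kazald1 (-0.079) and Mcm3 (0.58) did. Genes past the mark toward Vwf-positive cells (305) numbered 200 thinned, 119 with other types left out and 10 with cycling cells left out. Toward Vwf-negative cells (258) they numbered 501 against all Vwf-negative cells, 147 and 27. The Vwf share (15.9%) was 8.55% thinned, 5.67% for 2 or more UMIs and 11.5% with other types left out. In ST-HSC the higher and lower counts (0 and 9) were 1 and 18 with DESeq2 size factors, 0 and 4 without the filter on low counts, 8 and 63 against all Vwf-negative cells, and 0 and 0 with DESeq2, with no replicate block for the mouse, with 1 partner and with other types left out. List medians in ST-HSC, without mouse 1 and without mouse 2, were 0.048 and 0.092 for stem cell genes (0.09), -0.23 and -0.33 for S phase (-0.31), -0.39 and -0.16 for G2 and M phase (-0.22) and 0.091 and 0.093 for platelet genes (0.09). Against all Vwf-negative cells they were 0.13, -0.45, -0.55 and 0.085; with other types left out 0.049, -0.22 and 0.048 for stem cell, S phase and platelet genes and -0.18 for progenitor genes (-0.098). With 1 partner the stem cell and platelet medians were 0.14 and 0.16. Without the filter the G2 and M phase median was -0.65 and the platelet median -0.026, and the platelet median was 0.10 with DESeq2 size factors, 0.11 with DESeq2 and 0.083 with no replicate block. The cause of these shifts was not tested. With 1 usable LT-HSC library the LT-HSC values have no replicate.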

Other observations

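Some other groups of genes also had a higher sum in Vwf-positive LT-HSC of mouse 2. Of 11 immediate early genes, which respond within minutes to cell handling, 1 lay past the mark toward Vwf-positive cells, Fos (0.82). Toward Vwf-negative cells 0 did, against 3.72% and 3.15% of all genes. The sum was 1127 CPM in Vwf-positive and 1001 CPM in Vwf-negative cells, a ratio of 1.13 (1.06 to 1.19). The median cell held 10 list UMIs in both classes, and 4 in both when thinned. Thinned means were 6.12 in Vwf-positive and 5.27 in Vwf-negative cells. The richest Vwf-positive cell held 121 list UMIs unthinned, and the richest Vwf-negative cell 48. Of 17 interferon response genes, 3 lay past the mark toward Vwf-positive cells (Rsad2, Iigp1 and Igtp) and Xaf1 toward Vwf-negative cells, against 3.72% and 3.15% of all genes, with a sum ratio of 1.16 (1.12 to 1.21). For Rsad2, 1 Vwf-positive cell held 36 of 86 UMIs. In ST-HSC the interferon ratio was 0.800 in mouse 1 (0.752 to 0.850) and 1.13 in mouse 2 (1.05 to 1.21). Of 6 myeloid priming genes 0 passed, with a ratio of 0.994 (0.942 to 1.05). The adult globin gene Hbb-bt, whose near-identical copies make its counts uncertain, had 380 UMIs in 44 Vwf-positive and 194 in 38 Vwf-negative cells. These genes were named after their values were seen.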
